A study of Homo sapiens with 12 samples.

Results

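The 10 genes described here encode the D-type cyclins (CCND1, CCND2, CCND3), their kinases (CDK4, CDK6) and 5 inhibitors of cyclin-dependent kinases (CDKN1A, CDKN1B, CDKN1C, CDKN2C, CDKN2D). They were found by matching the Ensembl identifiers of the count tables to these symbols, and make up 10 of the 63677 genes listed. The study sequenced RNA from SET-2, an established human acute myeloid leukemia line, in 12 libraries. The lysine demethylase LSD1, encoded by KDM1A, was wild type (WT) in 6 libraries. In the other 6 it carried an arginine inserted between leucine and asparagine (Leu659_Asn660insArg, here insR), and the labels call these cells drug-resistant. Cells of each genotype received either 0.1% (v/v) DMSO or 250 nM GSK-LSD1, an irreversible LSD1 inhibitor, for 48 h, which gives 4 groups of 3 libraries named WT DMSO, WT GSK-LSD1, insR DMSO and insR GSK-LSD1. DMSO is the solvent control. Whether the insR cells are 1 clone, and whether the replicates of a group were separate cultures, is not given in the sources used here. The p-values therefore measure the spread between these libraries, which may be technical, and a genotype difference cannot be told apart from a difference between 2 cell populations.

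D-type cyclins bind CDK4 or CDK6 in G1, and the active kinase phosphorylates the retinoblastoma protein RB, which then releases E2F transcription factors that switch on genes of DNA replication. In blood cells CDK6 and cyclins D2 and D3 are prominent forms. The INK4 proteins, among them p18 (CDKN2C) and p19 (CDKN2D), bind the CDK4 and CDK6 subunits themselves. The CIP/KIP proteins p21 (CDKN1A), p27 (CDKN1B) and p57 (CDKN1C) bind cyclin-CDK complexes, inhibit cyclin E-CDK2 and can also help to assemble cyclin D complexes. LSD1 removes methyl groups from histone H3 and, with the repressors GFI1 and GFI1B, holds down target genes in blood cells.

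Promoter sequences were available for 7 of the 10 genes, in 12 windows of 300 bases around an annotated start. CCND1, CCND2 and CDKN1C had none, so the motif search below does not cover them. The 4 stretches below are shown because their genes carry the changes described later: CDK6 fell and CDKN1B rose under the drug in WT cells, and CDKN1A and CDKN2D were higher in insR cells. Each line holds the 250 bases before the start, 5′ to 3′ on the gene's strand, with CG dinucleotides in capitals, from RefSeq on GRCh38.p14. That build is later than the authors' hg19, and no value of theirs was placed on these coordinates. The CDK6 stretch is at chr7:92836574-92836823 (minus strand), that of CDKN1B at chr12:12717118-12717367 (plus), that of CDKN1A at chr6:36678464-36678713 (plus) and that of CDKN2D at chr19:10568980-10569229 (minus).
CDK6: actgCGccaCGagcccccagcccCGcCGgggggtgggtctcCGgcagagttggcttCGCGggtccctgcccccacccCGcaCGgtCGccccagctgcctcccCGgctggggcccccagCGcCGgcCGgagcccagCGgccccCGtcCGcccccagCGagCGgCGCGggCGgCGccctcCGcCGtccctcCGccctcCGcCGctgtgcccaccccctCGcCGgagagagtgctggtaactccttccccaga
CDKN1B: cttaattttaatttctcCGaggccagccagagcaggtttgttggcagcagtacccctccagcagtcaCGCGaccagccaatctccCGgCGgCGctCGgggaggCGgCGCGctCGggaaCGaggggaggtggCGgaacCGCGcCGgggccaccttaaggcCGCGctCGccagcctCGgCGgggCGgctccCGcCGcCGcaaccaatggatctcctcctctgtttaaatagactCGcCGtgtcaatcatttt
CDKN1A: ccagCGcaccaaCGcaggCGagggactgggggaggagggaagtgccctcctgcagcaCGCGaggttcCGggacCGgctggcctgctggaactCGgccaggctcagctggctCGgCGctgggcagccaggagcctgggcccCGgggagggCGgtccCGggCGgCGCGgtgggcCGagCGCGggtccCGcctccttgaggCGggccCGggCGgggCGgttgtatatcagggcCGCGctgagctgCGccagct
CDKN2D: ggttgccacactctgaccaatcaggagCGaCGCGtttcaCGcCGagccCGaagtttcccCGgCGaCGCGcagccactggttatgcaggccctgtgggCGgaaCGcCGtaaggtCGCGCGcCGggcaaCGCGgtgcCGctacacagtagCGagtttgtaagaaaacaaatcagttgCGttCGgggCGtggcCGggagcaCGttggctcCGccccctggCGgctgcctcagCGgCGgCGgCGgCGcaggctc
These stretches held 30, 27, 27 and 33 CG dinucleotides in the order shown, against a median of 11 in the same 250 bases of all 34943 promoter windows of the table. Over the whole 300-base windows, the 12 of these genes had a median of 29 CG dinucleotides and 68.3% G and C, against 14 and 58.7% in all windows. Motifs for 3 factors were searched on both strands. The E2F motifs TTTGGCGC and TTTCCCGC occur in 0.65% and 1.62% of all windows, the STAT motif TTCNNNGAA in 7.66% and the GFI1 motif AATCACNGC in 1.03%. The 12 windows held 1 match, to the GFI1 motif, with its first base at -70 from the start in 1 of the 3 windows of CCND3. A match is only a run of letters, and the windows leave out more distant elements.

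Reads in genes numbered 4837096 to 10141155 per library, and levels below are in CPM, the usual depth-scaled read count, after TMM scaling (means ± SD, n = 3). The libraries are of a 3′ tag kind, and each test compares 1 gene between groups and not with other genes. Shares and sums over genes, where given, only describe tag reads. All 11 markers of leukaemic myeloid and megakaryoblastic cells were detected. KDM1A was at 265 ± 26.5 CPM in WT DMSO and 109 ± 2.18 in insR DMSO, which does not show the insertion. Summed over 6 monocyte and macrophage markers, the level was 94.7 to 118 CPM in WT DMSO and 271 to 300 in WT GSK-LSD1. In insR cells it was 107 to 119 without and 140 to 146 with the drug. LYZ, ITGAM and VCAN carried these sums, at 83.4, 19.3 and 5.26 CPM in WT DMSO and 128, 66.9 and 88.8 in WT GSK-LSD1. CSF1R, a defining marker of that list, was at 0 in both DMSO groups and at 1.29 CPM in WT GSK-LSD1. Group means of CD14 reached at most 0.998 CPM and those of FCGR1A at most 0.128. Reads outside any gene were 18.4% to 19.5% of unique reads in WT GSK-LSD1, 16.3% to 16.7% in WT DMSO and 13.7% to 17.1% in insR libraries. Mitochondrial reads were 3.97% to 4.54% of reads in genes in WT GSK-LSD1, 2.93% to 3.55% in WT DMSO and 2.70% to 3.58% in insR libraries. These 3 measures move with the WT response, and their part in it was not tested. In bulk RNA, fewer cells of one kind and less RNA per cell cannot be told apart.

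**Figure D1:**
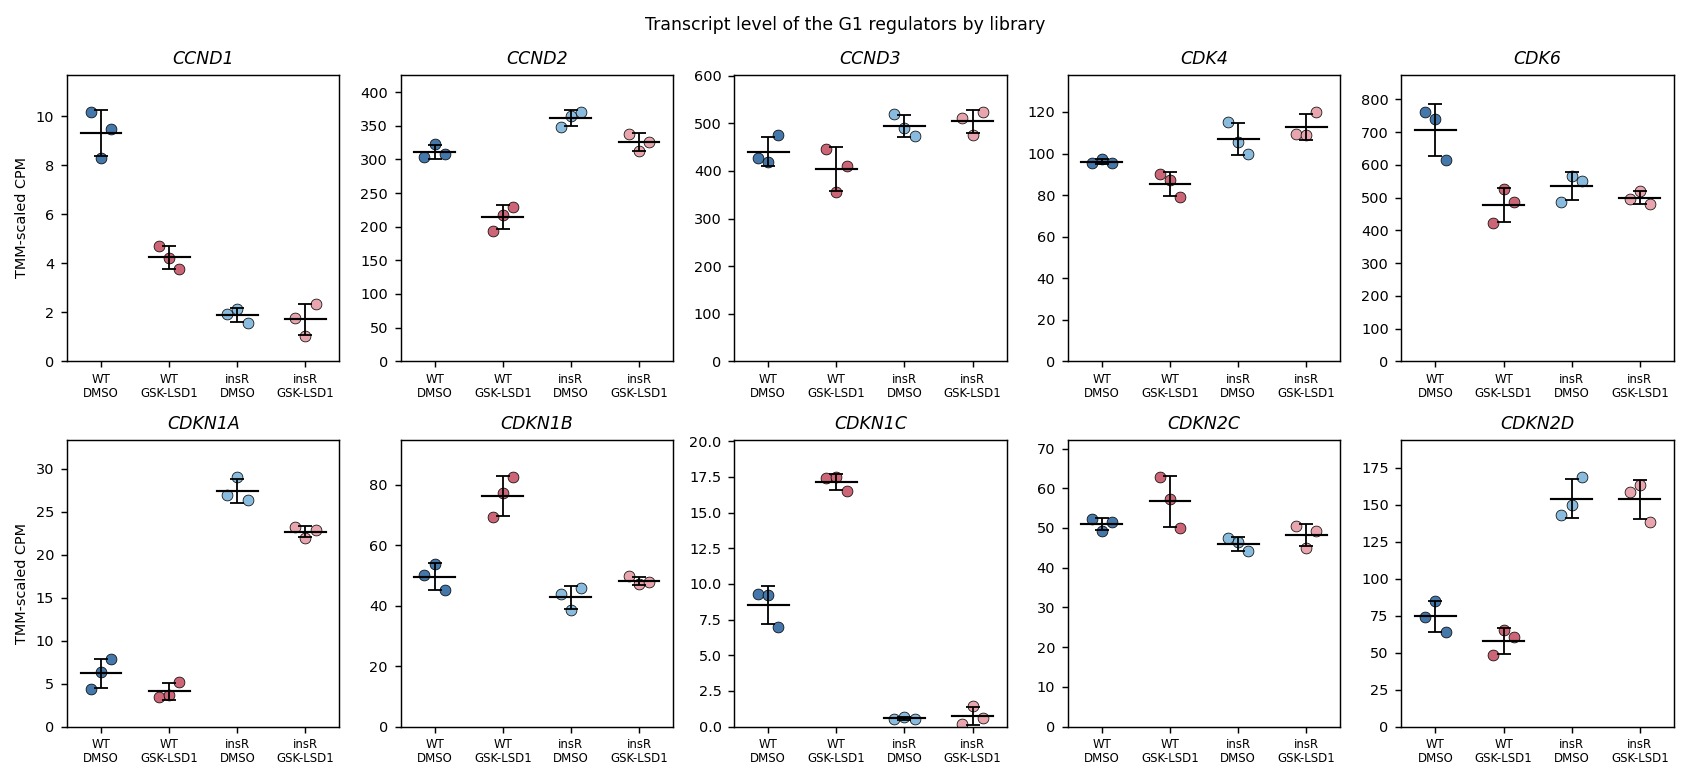
TMM-scaled CPM (linear axis from 0) of the 10 genes in each of the 12 libraries; points are libraries, the horizontal line is the group mean and the bar is ± SD (n = 3). CDKN1C reads 16.5 to 17.5 CPM in WT GSK-LSD1 and at most 1.45 in any insR library, while CDKN1A reads at least 21.99 in every insR library and at most 7.86 in WT.

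Under GSK-LSD1 in WT cells, cyclins D1 and D2, CDK6 and CDKN2D fell, while the inhibitors CDKN1B and CDKN1C rose. Thus 6 of the 10 genes were called by edgeR's quasi-likelihood test (adjusted p below 0.05 over 12864 genes), 4 lower and 2 higher. Of all genes tested, 45.2% were called in this comparison, 22.5% lower and 22.7% higher, so calls were common throughout and the count by itself does not set the 10 genes apart. Their median log2 fold change was -0.27, against 0.01 over all genes. Libraries did not overlap between the groups for 6 of the 10, with CDK4 in place of CDKN2D, against 51.9% of all genes.

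CCND1, which encodes cyclin D1, was at 10.2, 8.31 and 9.47 CPM in WT DMSO and at 4.73, 4.22 and 3.77 in WT GSK-LSD1. Every treated library lay below every control library. The log2 fold change was -1.15 (SE 0.25, adjusted p = 0.000551), a level 2.21-fold lower. The gene was sparsely covered, with 53 to 62 reads per library in WT DMSO and 22 to 37 in WT GSK-LSD1. CCND2, for cyclin D2, was at 303.6, 322.5 and 307.4 CPM in WT DMSO and at 194.2, 217.9 and 229.5 in WT GSK-LSD1. The groups again did not overlap, and the log2 fold change was -0.54 (SE 0.08, adjusted p = 3.84e-06). CCND3, for cyclin D3, was at 426.6, 418.8 and 476.6 CPM in WT DMSO and at 447.2, 356.2 and 410.6 in WT GSK-LSD1. These groups overlapped, and its log2 fold change of -0.12 (95% interval -0.30 to 0.05) did not pass the test (adjusted p = 0.248).

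CDK6, the kinase partner that also takes part in transcription in blood cells, was at 761.8, 740.0 and 616.2 CPM in WT DMSO and at 423.3, 526.3 and 487.0 in WT GSK-LSD1. The lowest control library stood above the highest treated library. Its log2 fold change was -0.56 (SE 0.09, adjusted p = 2.27e-05). CDK4, the other D cyclin kinase, was at 95.3, 97.5 and 95.2 CPM in WT DMSO and at 90.0, 87.4 and 78.9 in WT GSK-LSD1. The libraries did not overlap, but the log2 fold change of -0.17 (95% interval -0.35 to 0.0045) was not called (adjusted p = 0.105).

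Among the CIP/KIP genes, CDKN1B, which encodes p27, was at 50.04, 53.9 and 45.0 CPM in WT DMSO and at 69.2, 77.4 and 82.5 in WT GSK-LSD1. All treated libraries were higher, with a log2 fold change of 0.62 (SE 0.10, adjusted p = 2.64e-05). CDKN1C, which encodes p57, was at 9.31, 9.24 and 6.97 CPM in WT DMSO and at 17.4, 17.5 and 16.5 in WT GSK-LSD1. Treated libraries lay closely together and above all controls, and the log2 fold change was 0.999 (SE 0.22, adjusted p = 0.000643). Its call was lost in limma-trend on the deposited normalized signal (adjusted p = 0.0541). CDKN1A, which encodes p21, was at 4.39, 6.30 and 7.86 CPM in WT DMSO and at 3.40, 3.65 and 5.19 in WT GSK-LSD1. These groups overlapped through control replicate 1 and treated replicate 3, and the log2 fold change of -0.54 (SE 0.23) missed the threshold (adjusted p = 0.0594). It passed when 1 of those libraries was left out, at adjusted p = 0.0155 without WT DMSO replicate 1 and 0.0215 without WT GSK-LSD1 replicate 3, and in limma-trend on the deposited normalized signal (0.0274).

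The INK4 genes did not follow CDKN1B. CDKN2D, for p19, was at 74.4, 84.9 and 64.3 CPM in WT DMSO and at 48.4, 65.1 and 60.4 in WT GSK-LSD1. The highest treated library just exceeded the lowest control library. Its log2 fold change was -0.36 (SE 0.11, adjusted p = 0.0123), and leaving out WT DMSO replicate 2 (adjusted p = 0.0955) or WT GSK-LSD1 replicate 1 (0.0739) ended the call. CDKN2C, for p18, was at 52.1, 49.2 and 51.4 CPM in WT DMSO and at 62.8, 57.2 and 50.1 in WT GSK-LSD1, which overlap. Its log2 fold change of 0.15 (95% interval -0.06 to 0.36) was not called (adjusted p = 0.247).

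The drug was then compared with DMSO in insR cells. There 0 of the 10 genes were called by edgeR, 0 had an unadjusted p below 0.05, and the lowest adjusted p was 0.670; DESeq2, limma-voom and limma-trend also called 0. In this comparison 0.505% of all genes tested were called (65 of 12864, and 28 to 40 without insR DMSO replicate 1 or 2 or any 1 of the 3 insR GSK-LSD1 libraries). The 10 log2 fold changes ran from -0.27 for CDKN1A to 0.30 for CDKN1C. CCND2 was at 348.4, 365.0 and 370.5 CPM in the DMSO libraries and at 338.4, 311.8 and 325.7 in the treated ones. CDKN1A was at 26.9, 29.03 and 26.4 CPM with DMSO and at 23.2, 21.99 and 22.9 with the drug. CDKN1B was at 43.8, 38.4 and 45.9 CPM with DMSO and at 49.8, 47.1 and 47.9 with the drug. These 3 genes had libraries that did not overlap, as did 13.7% of all genes, and their log2 fold changes of -0.15, -0.27 and 0.18 had the sign seen in WT cells. For CDKN1C, with 12 summed reads in each insR group, the interval of -0.92 to 1.52 includes the WT value, so a change of that size was not detectable at this depth. The interval of CCND1, -0.84 to 0.63, does not include the WT value of -1.15.

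**Figure D2:**
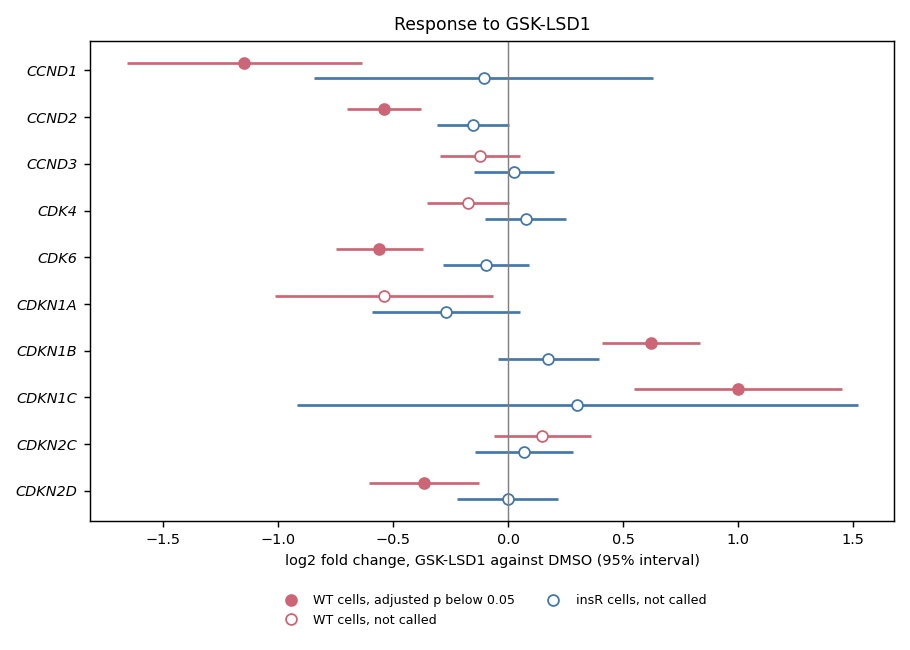
Log2 fold change of GSK-LSD1 against DMSO for the 10 genes in WT (red) and insR cells (blue), with 95% intervals from edgeR; filled points passed adjusted p below 0.05. Among WT points 6 are filled, from -1.15 (CCND1) to 0.999 (CDKN1C), and 0 insR points are.

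Whether the responses differed by genotype was tested directly, as the insR response minus the WT response. CCND2 and CDK6 fell less in insR cells and CDKN1B rose less, so 3 of the 10 genes were called against 25.1% of all genes tested. The difference was 0.39 for CCND2 (SE 0.11, edgeR adjusted p = 0.00995), 0.46 for CDK6 (SE 0.13, adjusted p = 0.00993) and -0.45 for CDKN1B (SE 0.15, adjusted p = 0.0288). The CDKN1B call was lost with no count filter (adjusted p = 0.0730) and when 1 of 7 libraries was left out, namely replicates 1 and 3 of WT DMSO, 3 of WT GSK-LSD1, 1 and 3 of insR DMSO, and 2 and 3 of insR GSK-LSD1 (adjusted p from 0.0516 to 0.0896). For CCND1 the difference was larger, 1.04, but so was its error (SE 0.44, adjusted p = 0.0863), and it passed only without insR GSK-LSD1 replicate 2 (0.0470). CDKN2D had a difference of 0.36 (adjusted p = 0.0938), which passed without WT DMSO replicate 3 (0.0286) or WT GSK-LSD1 replicate 2 (0.0470). CDKN1C had -0.70 with an interval of -2.05 to 0.66, CDK4 0.25 (0.0004 to 0.50; adjusted p = 0.136), CDKN1A 0.27 (-0.30 to 0.84), CCND3 0.15 (-0.10 to 0.40) and CDKN2C -0.08 (-0.38 to 0.22).

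Without drug, in a comparison that shares the WT DMSO libraries with the WT response, insR cells differed from WT cells most in CDKN1C, CCND1, CDKN1A and CDKN2D. CDKN1A and CDKN2D were higher, CDKN1C and CCND1 were much lower, CDK6 was lower and CCND2 slightly higher. Thus 6 of the 10 genes were called, 3 in each direction, against 30.1% of all genes tested. Libraries did not overlap for 8 of the 10, against 42.4% of all genes.

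CDKN1A in insR DMSO, at the levels given above, was at 27.4 ± 1.41 CPM against 6.18 ± 1.74 in WT DMSO. Its lowest insR library exceeded the highest WT library by a wide margin, and the log2 fold change was 2.15 (SE 0.18, edgeR adjusted p = 1.33e-09), or 4.43-fold higher. CDKN2D was at 143.2, 150.1 and 168.7 CPM in insR DMSO, above all WT libraries, with a log2 fold change of 1.04 (SE 0.11, adjusted p = 7.57e-08). CDKN1C was at 0.508, 0.660 and 0.527 CPM in insR DMSO, from 5, 4 and 3 reads. Its log2 fold change was -3.89 (SE 0.36, adjusted p = 5.72e-09), or 14.9-fold lower. That SE is derived from the test statistic and can be too small at so few reads. The 39 to 69 reads per WT DMSO library show that depth does not limit the direction of this difference, only its size. CCND1 was at 1.93, 2.14 and 1.58 CPM in insR DMSO, below every WT library of either treatment. Its log2 fold change was -2.28 (SE 0.28, adjusted p = 4.20e-07), or 4.86-fold lower.

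CDK6 was at 485.6, 565.9 and 551.3 CPM in insR DMSO, all below WT DMSO, with a log2 fold change of -0.40 (SE 0.09, adjusted p = 0.00125). The CCND2 difference of 0.21 (SE 0.08, adjusted p = 0.0344) was small. It was lost with no count filter (adjusted p = 0.0698) and without any 1 of the 3 WT DMSO libraries or insR DMSO replicate 2 or 3 (0.0584 to 0.120). CCND3 (0.17, adjusted p = 0.142), CDK4 (0.16, 0.178), CDKN1B (-0.22, 0.125) and CDKN2C (-0.15, 0.314) were not called. Their 95% intervals reached at most 0.34 above and -0.44 below 0.

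Under GSK-LSD1 more genes were called between the 2 genotypes, among the 10 and among all genes, of which 30.1% were called in DMSO. The difference was smaller under drug than in DMSO for CCND1 and CDK6. Of the 10 genes, 8 were called, 5 higher and 3 lower in insR cells, against 54.5% of all genes tested, and 8 of 10 had non-overlapping libraries, against 60.1% of all genes. This comparison shares its treated libraries with the 2 responses above. CDKN1A was at 22.7 ± 0.636 CPM in insR GSK-LSD1 against 4.08 ± 0.970 in treated WT cells, a log2 fold change of 2.41 (SE 0.20, edgeR adjusted p = 2.38e-10). CDKN2D was at 158.9, 163.7 and 138.6 CPM in insR GSK-LSD1, which is 1.40 higher on the log2 scale (SE 0.11, adjusted p = 3.49e-10). CDKN1C was at 0.161, 1.45 and 0.619 CPM in insR GSK-LSD1, from 1, 7 and 4 reads, with a log2 fold change of -4.59 (SE 0.34, adjusted p = 3.54e-11). CDKN1B was 0.67 lower in insR than in WT cells on the log2 scale, that is at -0.67 (SE 0.10, adjusted p = 7.43e-06).

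Among the activators under drug, CCND1 was at 1.77, 1.04 and 2.32 CPM in insR GSK-LSD1, with a log2 fold change of -1.24 (SE 0.32, edgeR adjusted p = 0.00199). CCND2 had a log2 fold change of 0.60 (SE 0.08, adjusted p = 4.45e-07). CCND3 was at 512.2, 476.2 and 524.0 CPM in insR GSK-LSD1, all above treated WT libraries, with 0.32 (SE 0.08, adjusted p = 0.00269). CDK4 was at 109.2, 109.1 and 120.0 CPM, also above all treated WT libraries, with 0.41 (SE 0.09, adjusted p = 0.000306). CDK6, at 495.5, 521.5 and 481.9 CPM, overlapped treated WT cells and had a log2 fold change of 0.06 (95% interval -0.13 to 0.25). CDKN2C was at 50.4, 45.0 and 49.2 CPM in insR GSK-LSD1, with -0.22 (adjusted p = 0.0705). It passed under upper-quartile scaling (adjusted p = 0.0289) and without WT GSK-LSD1 replicate 3 (0.0236).

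**Figure D3:**
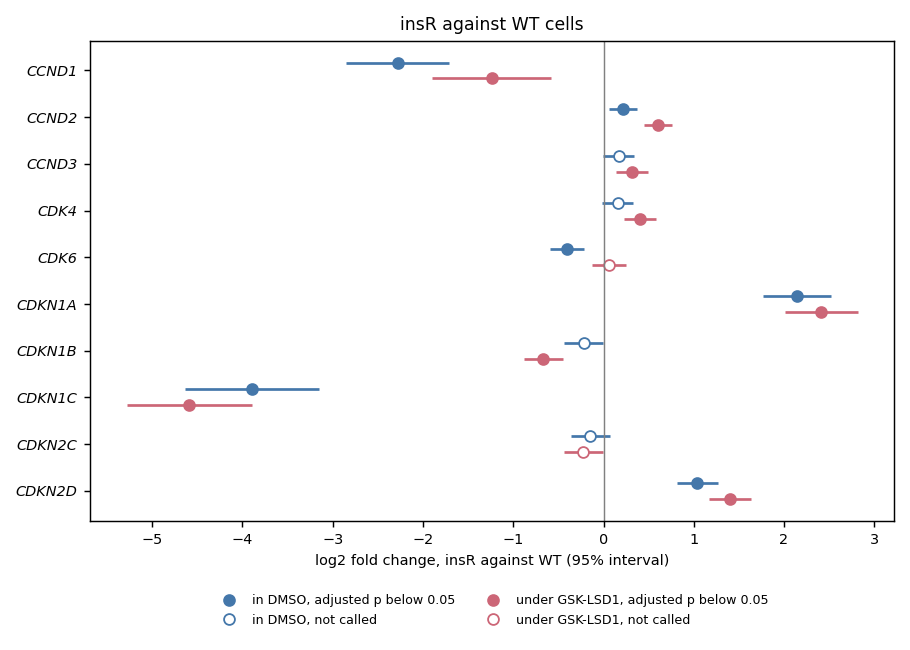
Log2 fold change of insR against WT for the 10 genes in DMSO (blue) and under GSK-LSD1 (red), with 95% intervals from edgeR; filled points passed adjusted p below 0.05. CDKN1C lies farthest to the left (-3.89 and -4.59) and CDKN1A farthest to the right (2.15 and 2.41).

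By level, WT GSK-LSD1 was the lowest group for CCND2, CCND3, CDK4, CDK6, CDKN1A and CDKN2D. WT GSK-LSD1 was the highest for CDKN1B, CDKN1C and CDKN2C. The CDKN1C order from low to high was insR DMSO and insR GSK-LSD1, which overlapped, then WT DMSO and WT GSK-LSD1, each apart from its neighbour. CDKN2D showed overlap between the WT groups and between the insR groups, and a gap between genotypes. All neighbouring groups overlapped for CCND3 and for CDKN2C. CDK6 was high in WT DMSO alone, and the other 3 groups overlapped their neighbours.

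The make-up of each family's reads differed between groups. These shares are of 3′ tag reads and are a description with no test. CDKN1A took 6.89% to 13.1% of CIP/KIP reads in WT DMSO and 3.70% to 4.99% in WT GSK-LSD1, but 36.2% to 42.6% in insR cells with DMSO and 31.2% to 32.1% with the drug. CDKN1C took 11.6% to 14.6% in WT DMSO and 15.8% to 19.3% in WT GSK-LSD1. In insR cells its share was 0.220% to 2.06%, with exact 95% binomial limits reaching from 0.00558% to 4.20%. The summed CIP/KIP level was 64.3 ± 4.81 CPM in WT DMSO, 97.6 ± 7.13 in WT GSK-LSD1, 70.7 ± 2.36 in insR DMSO, 71.7 ± 1.34 in insR GSK-LSD1. CDKN1B took the largest share in every group, 75.2% to 78.5% in WT DMSO and 56.4% to 63.0% in insR DMSO.

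For the INK4 pair, CDKN2D took 55.6% to 63.3% of reads in WT DMSO and 75.1% to 79.3% in insR DMSO, and the sum was 125 ± 9.23 and 199.9 ± 11.5 CPM. Of D cyclin reads, CCND1 took 1.11% to 1.38% in WT DMSO and 0.187% to 0.2502% in insR DMSO, so nearly all D cyclin reads came from CCND2 and CCND3 in every group. The D cyclin sum was 761 ± 28.3 CPM in WT DMSO, 623 ± 38.5 in WT GSK-LSD1, 858 ± 12.3 in insR DMSO, 831 ± 36.5 in insR GSK-LSD1. The summed level of both kinases was 802 ± 79.1, 564 ± 50.2, 641 ± 36.6 and 612 ± 15.8 CPM in the same order. Intervals cover counting error only.

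**Figure D4:**
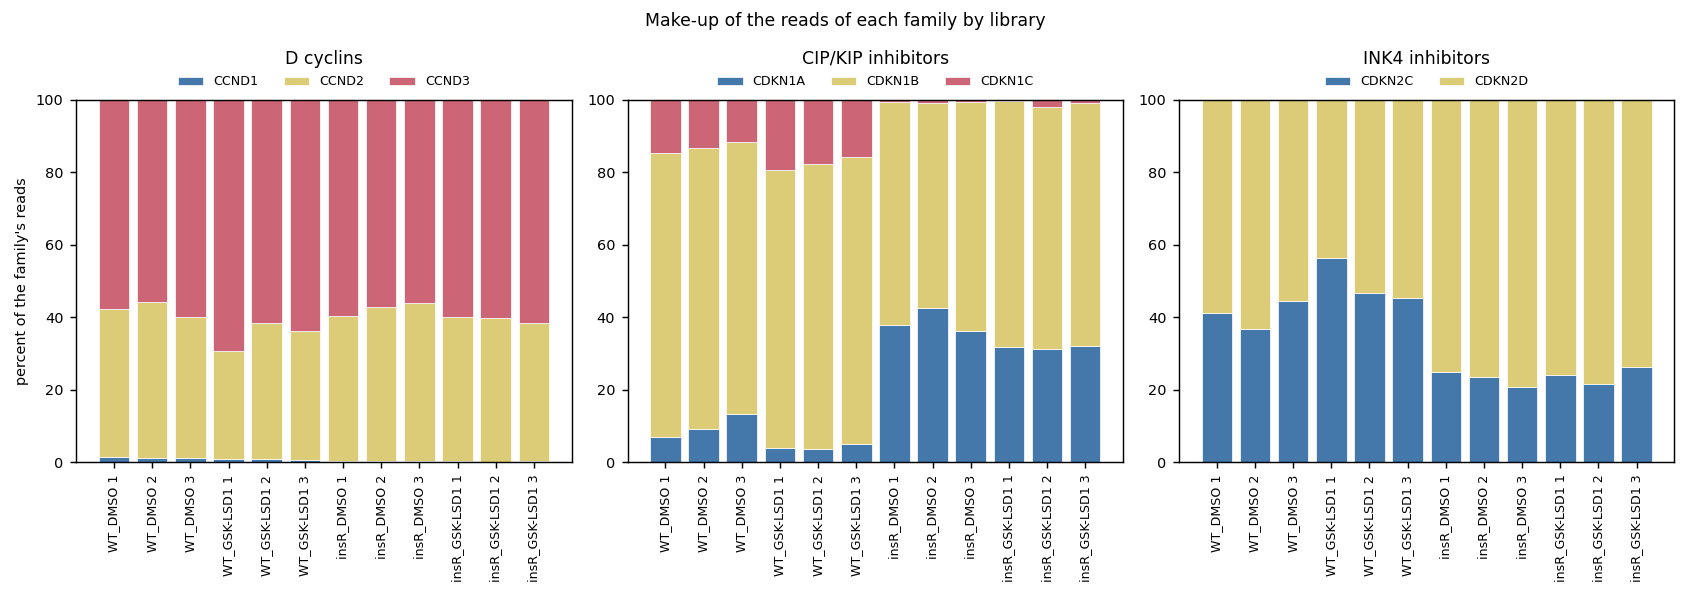
Stacked bars of the percent of each family's reads that came from each gene, for the 12 libraries in group order. CDKN1A fills 31.2% to 42.6% of CIP/KIP reads in the insR libraries and 3.70% to 13.1% in the WT libraries, and CDKN2D fills at least 73.8% of INK4 reads in insR libraries.

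The INK4 locus genes CDKN2A and CDKN2B, which encode p16, ARF and p15, had 0 reads in all 12 libraries. A count of 0 over the 3 libraries of a group allows up to 0.136 to 0.169 CPM, depending on the group. Their neighbours CDKN2B-AS1 and MTAP were looked at after this was seen and had 0 and 1 reads in total. DNA was not measured in these files.

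The other genes of the route from G1 to S phase were read from lists, which were chosen with earlier results of these data known. In the WT response 11 of 16 S phase genes under E2F control were lower and 0 higher (median log2 fold change -0.35, against 0.01 over all genes, of which 22.5% were lower). CCNA2, which encodes cyclin A2, fell from 90.0 ± 4.51 to 56.2 ± 2.47 CPM with a log2 fold change of -0.68 (edgeR adjusted p = 6.57e-07). MCM4 and MCM6, subunits of the replicative helicase, fell by 0.61 (adjusted p = 2.11e-06) and 0.46 (2.32e-05) on the log2 scale. MYBL2, a cell cycle transcription factor, had -0.59 (adjusted p = 2.75e-05). Members that were not called included TK1 (0.11), MCM5 (-0.04), MCM7 (-0.03) and PCNA (-0.20). The lower count lay between 9 and 11 and the higher count between 0 and 1 in all 15 alternatives run for this response. The higher count was 1 with limma-voom, no filter beyond 1 count, only the groups compared, and upper-quartile scaling.

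In insR cells 0 of these 16 genes were called under the drug, against 0.505% of all genes tested, with a median of 0.04. The difference in response was called for 9 of 16, all more positive in insR cells, against 13.3% more positive of all genes tested. Among the 9 were MCM4 and MCM2 (0.71 each, edgeR adjusted p = 9.16e-05 and 0.00328), CCNA2 (0.70, 0.000121) and MCM6 (0.54, 0.000524). Between genotypes, 6 of 16 were higher in insR cells in DMSO (median 0.20) and 15 of 16 under drug (median 0.65), and 0 were lower. Of all genes tested, 14.5% were higher in DMSO and 27% under drug. In DMSO these included TK1 (0.63, adjusted p = 4.92e-06), RRM2, a ribonucleotide reductase subunit (0.53, 2.61e-05), MCM2 (0.54, 0.00106) and MCM3 (0.38, 0.00123).

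Cyclin E, CDK2 and their activators had 4 of 7 lower and 0 higher in the WT response (median log2 fold change -0.43), against 22.5% lower and 22.7% higher of all genes. CDC25A, the phosphatase that activates CDK2, fell from 105 ± 10.2 to 57.1 ± 2.42 CPM (log2 fold change -0.88, edgeR adjusted p = 1.29e-08). CDK2 fell by 0.33 on the log2 scale (adjusted p = 0.00197) and CCNE1, for cyclin E1, by 0.68 (0.00323). MNAT1, a subunit of the CDK-activating kinase, had -0.27 (adjusted p = 0.0294) and lost its call when replicate 1 or 2 of either WT group was left out (0.0594 to 0.0864) and under upper-quartile scaling (0.0736). None of the 7 was called in insR cells under the drug, against 0.505% of all genes tested. CDC25A differed in response by 0.94 (edgeR adjusted p = 2.71e-06). Under drug CDC25A was at 135 ± 1.38 CPM in insR cells, 1.25 above WT on the log2 scale (adjusted p = 1.27e-11).

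Of 9 genes for turnover of D cyclins and p27, 3 were lower and 0 higher in the WT response (median -0.17) and 0 were called in the insR response. That share of lower genes compares with 22.5% of all genes, and the calls in both directions with 45.2%. In the insR response 0.505% of all genes were called. CKS1B, the cofactor with which the SKP2 ligase marks p27 for breakdown, fell from 341 ± 21.2 to 204 ± 5.71 CPM (log2 fold change -0.74, edgeR adjusted p = 3.90e-08). CUL4A, a scaffold of the ligase that with AMBRA1 targets D cyclins, fell by 0.63 (adjusted p = 5.72e-07). SKP2 itself had -0.19 (adjusted p = 0.357). CKS1B and CUL4A differed in response by 0.70 (adjusted p = 4.03e-05) and 0.56 (0.000521). In the same WT libraries CKS1B was lower and CDKN1B higher. Both are RNA values, p27 protein was not measured in these files, and a link between them was not tested.

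Of 12 RB family and E2F genes tested, 3 were higher and 3 lower in the WT response (median -0.07) and 0 were called in the insR response. These 6 of 12 are near the 45.2% called of all genes, and in the insR response 0.505% of all genes were called. E2F2, among the 3 higher, rose by 0.41 on the log2 scale in WT cells (edgeR adjusted p = 0.00824). In insR cells E2F2 was not called, but its log2 fold change was of similar size, 0.47 (95% interval 0.22 to 0.72, adjusted p = 0.0951). The difference in its response was 0.06 (adjusted p = 0.851). TFDP1, the DNA-binding partner of E2F factors, fell from 47.3 ± 4.55 to 20.9 ± 0.894 CPM (log2 fold change -1.18, edgeR adjusted p = 1.31e-08), and its paralog TFDP2 rose from 206 ± 14.0 to 308 ± 15.2 (0.58, 1.40e-06). Without WT DMSO replicate 2 the higher count was 1, and without WT GSK-LSD1 replicate 3 the lower count was 1. In insR DMSO cells RB1 was at 18.9 ± 0.857 CPM against 38.5 ± 2.05 in WT (log2 fold change -1.03, adjusted p = 1.17e-06), and E2F3 at 85.6 ± 14.4 against 191 ± 14.8 (-1.16, 1.28e-09). Under drug the differences were -1.28 (adjusted p = 1.66e-08) and -1.15 (6.71e-10).

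Genes next to each of these on the chromosome were read beside them, 10 on each side. For insR against WT in DMSO, 15.6% of all genes tested were lower and 14.5% higher. Under drug these shares were 27.5% and 27%. Of the 20 neighbours of RB1 on chromosome 13, 16 were lower and 0 higher in insR DMSO, with a median log2 fold change of -0.94. Of the 20 neighbours of E2F3 on chromosome 6, 15 were lower and 1 higher, with a median of -0.98. These neighbourhoods were looked at after the values of both genes were seen. The surroundings of the D cyclin, kinase and inhibitor genes had medians nearer 0: -0.13 for CCND1, -0.22 for CDKN1C, 0.22 for CDKN1A, 0.12 for CDKN2D and -0.04 for CDK6 in the same comparison. CDKN1B had the largest of the 10, with a median of 0.38 and 9 of 20 neighbours higher, while CDKN1B itself was at -0.22. Of the 20 neighbours of CDKN1C, 6 were lower and 1 higher in insR DMSO, and 1 lay below CDKN1C itself at -3.89. Under drug 10 of them were lower and 3 higher in insR cells, and 4 lay below CDKN1C itself at -4.59. Copy number was not measured in these files, and its part in these values was not tested.

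Of 11 p53 target genes tested, 5 were higher and 2 lower in the WT response (median 0.25), in which CDKN1A, a p53 target too, was at -0.54 and not called. Of all genes 22.7% were higher and 22.5% lower. ZMAT3, an RNA-binding factor, rose from 49.7 ± 0.990 to 90.5 ± 5.63 CPM (log2 fold change 0.87, edgeR adjusted p = 2.50e-07), TP53I3 rose by 1.01 (7.82e-06) and SESN2, a stress-induced sestrin, by 0.75 (0.000216). MDM2, the ligase that degrades p53, fell by 0.44 (adjusted p = 0.000202). In insR DMSO, where CDKN1A was 4.43-fold higher, 3 of the 11 were higher and 2 lower, against 14.5% and 15.6% of all genes. FAS, a death receptor, was at 4.97 ± 1.02 CPM there against 0.901 ± 0.348 in WT (log2 fold change 2.44, adjusted p = 0.000123), and ZMAT3 was lower (-0.49, 0.00101). The count of 3 higher became 1 without WT DMSO replicate 3 or insR DMSO replicate 1 or 2. The count of 2 lower became 1 without WT DMSO replicate 1 or 3 or insR DMSO replicate 3. It also became 1 with DESeq2 and with no filter beyond 1 count. Under drug 4 were higher and 6 lower in insR cells, against 27% and 27.5% of all genes, with ZMAT3 at -1.31 (adjusted p = 2.04e-10) and GADD45A, a growth arrest gene, at 0.94 (4.45e-07).

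**Figure D5:**
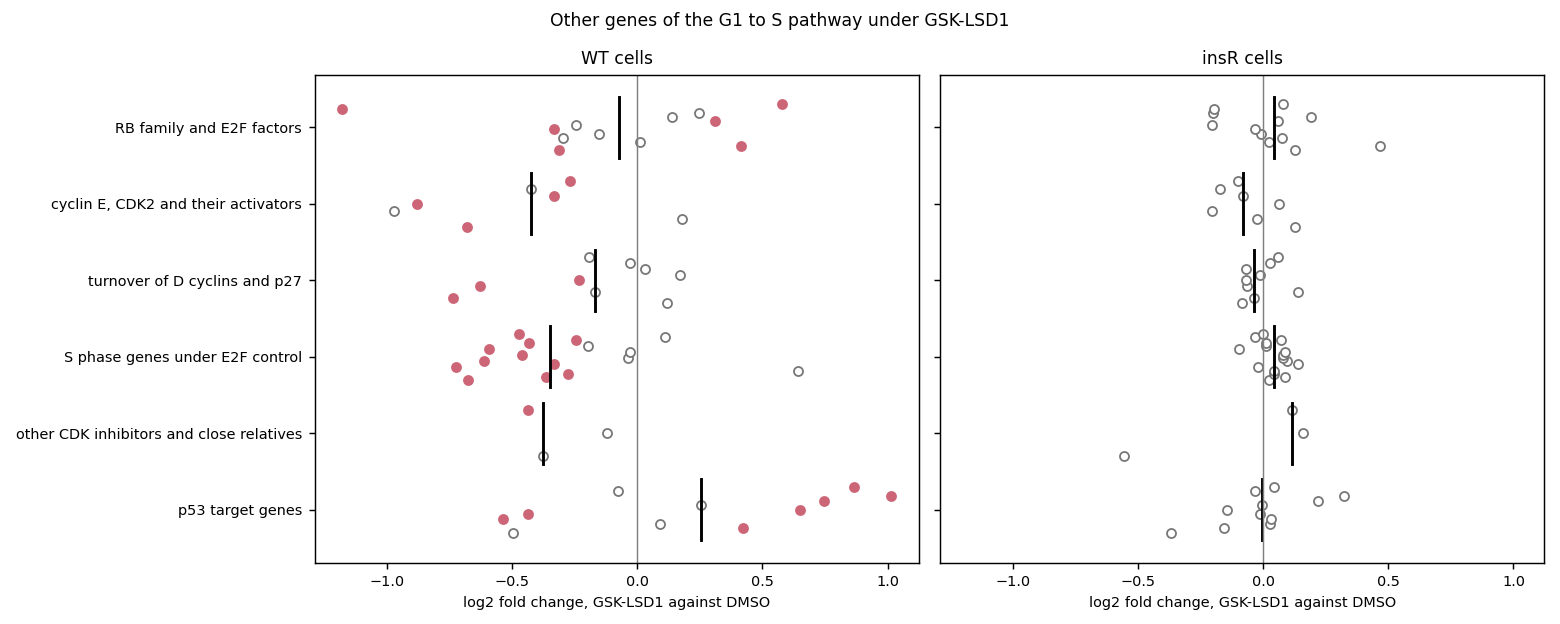
Log2 fold change of GSK-LSD1 against DMSO for each tested gene of the 6 lists in WT (left) and insR cells (right); filled points passed adjusted p below 0.05 in edgeR and vertical bars are list medians. In WT cells 11 of 16 S phase genes are filled, all to the left of 0, and in insR cells 0 points are filled.

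For the 4 genes of the group that changed by at least 1 on the log2 scale in some comparison, the closest profiles over the 12 libraries were sought among 8329 protein-coding genes, by the root mean square difference of centred log2 CPM. CCND1 lay closest to CRB2 (0.26) and LTBP1 (0.31). CRB2 was at 27.04, 13.5, 5.41 and 5.06 CPM in the groups WT DMSO, WT GSK-LSD1, insR DMSO, insR GSK-LSD1. CDKN1A lay closest to DRG2 (0.29) and TRPV2 (0.32), of which DRG2 was at 27.96, 22.8, 102 and 95.5 CPM in that order. CDKN1C lay closest to C2CD2 (0.35) and UBE2R2 (0.47), and UBE2R2 was at 158, 204, 10.2 and 10.8 CPM. CDKN2D lay closest to CEMIP2 (0.10) and NR2C2AP (0.15), and CEMIP2 was at 35.97, 30.7, 76.8 and 78.7 CPM. These genes were picked for likeness over the same libraries, so the likeness is a description.

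Several of the 10 genes overlap others, and the strand setting of the counting is not given in the sources used here. LTO1, on the strand opposite CCND1, had 1086 reads over all libraries against 329 for CCND1. Between genotypes in DMSO it had a log2 fold change of -0.63 (SE 0.19, edgeR adjusted p = 0.0142), a change in the same direction as CCND1 at -2.28, and the 2 genes' reads cannot be told apart with certainty. Opposite CDK4 lie TSPAN31, with 560 reads, and MARCHF9, with 1284, against 7829 for CDK4. MARCHF9 rose in the WT response (log2 fold change 0.83, adjusted p = 0.000189), in which CDK4 was at -0.17. The antisense transcript at CDK6 had 152 reads against 43122.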

How the data were processed

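Polyadenylated RNA of 12 SET-2 libraries was read from its 3′ ends (QuantSeq kit), per the labels' protocols. The submitters' processing notes name bcl2fastq 2.2, STAR 2.6.0c, HTSeq 0.9.1, DESeq2 and hg19; neither the annotation release nor the strand setting is given in the sources used here. The authors deposited whole-read counts per gene without normalization, and these counts were tested. The deposited normalized signal holds the same counts divided by 1 factor per library: 100% of values came out whole (tolerance 0.01) and 0 genes differed from the counts. Entries naming no gene stayed out of library sizes; reads outside genes are given in the results. Of 63677 identifiers, 52181 had a symbol.

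The test was edgeR 4.0.16 (robust quasi-likelihood, TMM, filterByExpr, all 12 libraries in 1 fit of 4 groups, R 4.3.3), with Benjamini-Hochberg adjustment over 12864 genes and calls below 0.05. All 10 genes passed the filter. SEs are the absolute log2 fold change divided by the square root of that fit's F statistic, and 95% intervals are symmetric around the fold change. At few reads, as for CDKN1C in insR cells, they are approximate and can understate counting error. Alternatives were DESeq2 1.42.0 and its size factors, upper-quartile scaling, 2 other filters, a replicate block, limma-voom and limma-trend (limma 3.58.1) on log2 of the normalized signal plus 1, fits of the compared groups alone, and leaving out each library. The fit was tested on simulated counts.

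The genes and lists were chosen with earlier results of these data known. Named in each comparison were the 10 genes, up to 4 called genes of lowest p per list, and, for genes changed by 1 or more (log2), the 2 nearest protein-coding profiles at a mean of 10 CPM or more. Other genes named, such as MTAP or those overlapping the 10, and list members given as not called, fall outside that rule. E2F7, PHLDA3, CDKN2A and CDKN2B were not tested. The value of 1 list member is not reported here. Gene order and overlaps came from GENCODE on a later build than hg19, for names only. Python 3.11.15, pandas 2.3.3 and matplotlib 3.10.9 made tables and plots.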

Additional observations from a re-analysis of the deposited data

Results flagged for a closer look

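The response to GSK-LSD1 differed between WT and insR cells for 3 of the 10 genes, against 25.1% of all genes tested. The test was edgeR's, of the difference itself (insR response minus WT response, log2). The share among the 10 genes was near that of all genes. It was also called for 15 named genes of the lists. Only the called genes of lowest p in each list were named. The number 15 follows from that limit and does not count all calls. Among the 10 genes, CCND2 had 0.39 and CDK6 0.46, having fallen in WT cells, and CDKN1B had -0.45, having risen there. CDC25A and CCNE1, which act at cyclin E-CDK2, had 0.94 and 0.81. The CCNE1 call (adjusted p = 0.0195) was lost without replicate 3 of WT GSK-LSD1, replicate 2 of insR DMSO or replicate 1 of insR GSK-LSD1 (0.0504 to 0.0528).

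Of the S phase genes, CCNA2 had 0.70, MCM2 0.71, MCM4 0.71 and MCM6 0.54. CKS1B and CUL4A, of ubiquitin ligases, had 0.70 and 0.56, and CDKN3, a phosphatase of CDKs, 0.55. The E2F partners moved apart, with TFDP1 at 0.98 and TFDP2 at -0.50. Among p53 targets, GADD45A had 0.57 and MDM2 0.42, while RRM2B had -0.79 and ZMAT3 -0.82. The GADD45A call (adjusted p = 0.0135) was lost without WT DMSO replicate 2 or WT GSK-LSD1 replicate 3 (0.0525 and 0.0511).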

How the results depend on the processing

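Over 15 alternatives (20 for the difference in response) the number of the 10 genes called was 5 to 7 in the WT response, 0 in the insR response, 2 to 4 for the difference in response, 5 to 6 for insR against WT in DMSO and 8 to 9 under drug; the changed calls of the 10 genes stand beside each result. Genes called in the insR response numbered 65, but 39 with limma-trend, 118 with no filter beyond 1 count, and 28 to 45 when 1 insR library was left out. Signs turned only for differences that were not called. In the insR response CDKN1C was at -0.034 with limma-voom and between -0.48 (without replicate 2 of insR GSK-LSD1) and 0.79 over the fits that left out 1 library, where CDKN2D lay between -0.054 and 0.075, CCND1 between -0.38 and 0.11 and CCND3 between -0.0035 and 0.065. CDKN2D was at 0.0017 with a stricter filter and 0.0047 with upper-quartile scaling. With 1 library left out, CDK6 between genotypes under drug lay between -0.021 and 0.13, and CDKN2C for the difference in response between -0.17 and 0.0041. The cause of these turns was not tested.

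Replicate numbers did not visibly pair the samples. Correlations between same-numbered libraries of different groups ran from -0.33 to 0.41, and 9 of 18 were over 0.1. Between differently numbered libraries they ran from -0.57 to 0.51, and 16 of 36 were over 0.1. With the replicate block, 6, 0, 3, 6 and 8 of the 10 genes were called, and 5818, 60, 3198, 3897 and 6994 of all genes, in the order of comparisons above. Of 68 named calls of listed genes, 12 were lost in some alternative and 0 turned sign. Depth limits CDKN1C in insR cells, at 1 to 7 reads per library, and CCND1 there.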
